A study of Mus musculus with 6 samples.

Results

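The 10 Krüppel-like factor genes described here were Klf2, Klf3, Klf4, Klf5, Klf6, Klf7, Klf9, Klf10, Klf11 and Klf13, taken by symbol from the 48526 gene identifiers of 6 RNA sequencing libraries. The set was chosen by its measured RNA levels: Klf2 and Klf4 were selected on their lower counts with doxycycline, and the other 8 are family members listed for comparison with them. The libraries came from mouse KP cells, a name the labels do not expand, made into 3 stable lines that each carried a doxycycline-inducible vector with a different hairpin RNA against Npm1, the gene of the nucleolar protein nucleophosmin. Each line, called line 3, line 4 or line 5 after its hairpin, gave 1 library after 100 ng/ml doxycycline, a tetracycline antibiotic that switches the hairpin on, and 1 library without it. All 6 libraries were thus from puromycin-selected cells with a hairpin vector, no library had doxycycline without an Npm1 hairpin, and whether a line was a single clone is not stated. An effect of the drug and of lower Npm1 cannot be told apart here.

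Krüppel-like factors are transcription factors that bind GC-rich and CACCC sequences through zinc fingers at their C terminus. They share this DNA-binding part with the SP proteins and differ in their N termini, through which some mostly activate transcription, some recruit the corepressor CtBP and others the corepressor SIN3A. Several are early response genes, with short-lived RNAs that follow serum, stress, shear flow or growth factors, and in epithelia Klf4 is known from differentiating cells and Klf5 from dividing ones.

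Counts in genes summed to between 24391198 and 27341036 per library. After low counts were filtered out 14531 genes were left to test, all 10 members among them. Levels are in CPM, counts scaled to the size of the library, in which 3 counts were worth 0.11 to 0.123. Npm1 was at 67.8, 245 and 400 CPM with doxycycline in lines 3, 4 and 5, against 2002, 1851 and 1924 CPM without (log2 fold change -3.02, SE 0.49, edgeR quasi-likelihood test, adjusted p = 0.011; adjusted p = 0.0937 without the untreated library of line 3 and 0.177 without line 4). On Npm1 alone an exact 2-sided permutation test had p = 0.1, the smallest that 3 libraries per group allow. The 7 epithelial markers, keratins among them, were all tested, with a summed level of 11845 to 16538 CPM with doxycycline and 15460 to 17779 CPM without. All 7 had a log2 fold change below 0 (49.6% of all genes tested), and 1 of them, Cldn4, fell (1.32% of all genes). Cldn4 was at 12.7 ± 4.96 CPM with doxycycline and 29.7 ± 4.65 CPM without (SD, n = 3 each; edgeR adjusted p = 0.0325).

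Among the activators of the family, Klf2 maintains quiescence in T lymphocytes and is induced by flow in endothelium. Klf2 (ENSMUSG00000055148, mm10 chromosome 8, 72319033 to 72321656, plus strand, 3 exons) had 1.69, 1.95 and 1.65 CPM with doxycycline in lines 3, 4 and 5, against 8.36, 9.29 and 7.79 CPM without. The 3 treated libraries lay close together and far below every untreated library. The log2 fold change was -2.26 (SE 0.22). Within lines, the treated library held between 20.3% (95% exact counting interval 13.9 to 28.8) of the untreated level in line 3 and 21.1% (14.8 to 29.5) in line 5, with line 4 between them. The 3 lines thus differed by less than counting error. Their remaining Npm1 ran from 3.39% in line 3 to 20.8% in line 5, and a relation of the Klf2 values to it was not tested. The intervals on Klf2 cover counting error only and compare 2 libraries each, not the conditions. The counts behind them were 37, 59 and 43 with doxycycline and 217, 237 and 203 without.

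Klf4, one of the reprogramming factors and a gene of barrier-forming epithelium (ENSMUSG00000003032, chromosome 4, 55527143 to 55532466, minus strand, with 5 exons), had 43.5, 26.4 and 23.9 CPM with doxycycline, against 60.5, 63.5 and 56.0 CPM without. The groups did not overlap, but the treated library of line 3 stood well above the other 2. The log2 fold change was -0.94 (SE 0.21). In line 3 the treated library kept 71.9% (66.3 to 78.0) of the untreated level, against 41.6% (38.2 to 45.3) in line 4 and 42.7% (38.8 to 46.9) in line 5. Line 3 was also the line with the least Npm1 left. A relation between the Klf4 and the Npm1 differences was not tested, with 1 library per line and condition. The coefficient of variation between lines was 34.1% for Klf4 with doxycycline and 6.26% without it, while for Klf2 it was 9.23% and 8.90%.

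**Figure D1:**
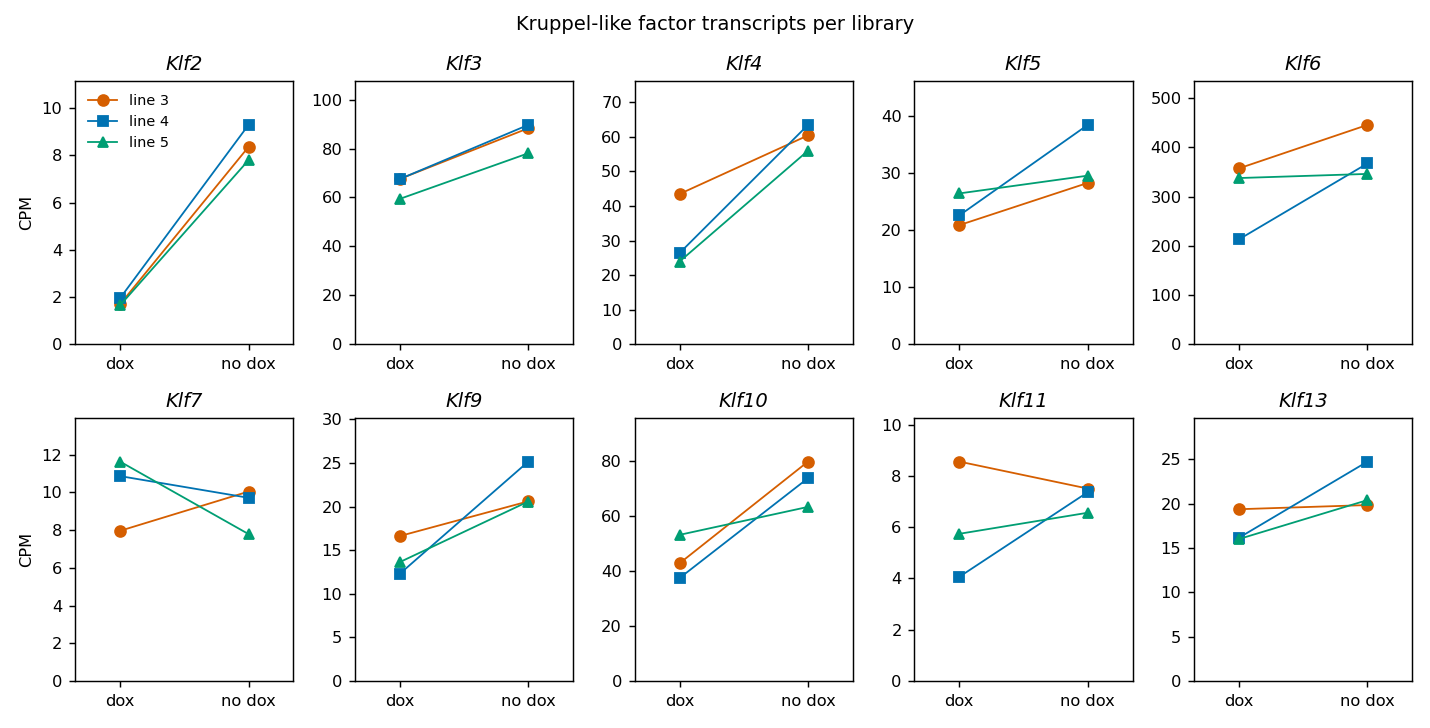
CPM of the 10 Krüppel-like factor genes in the 6 libraries, each panel with its own linear axis from 0, libraries with doxycycline (dox) left and without (no dox) right, and a line joining the 2 libraries of 1 hairpin line. Klf2 lay at 1.65 to 1.95 CPM with doxycycline and 7.79 to 9.29 CPM without, while Klf7 and Klf11 cross between lines.

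Promoter sequence is shown for Klf2 and Klf4, since these led the choice of members; the bases come from RefSeq (GRCm38.p6), end before the annotated starts, and carry in capitals the GC boxes (GGGCGG or its complement CCGCCC) to which KLF and SP proteins bind. The Klf2 stretch is chr8:72318812-72319032 on the plus strand and the Klf4 stretch chr4:55532476-55532725 on the minus strand, each written 5′ to 3′.
Klf2: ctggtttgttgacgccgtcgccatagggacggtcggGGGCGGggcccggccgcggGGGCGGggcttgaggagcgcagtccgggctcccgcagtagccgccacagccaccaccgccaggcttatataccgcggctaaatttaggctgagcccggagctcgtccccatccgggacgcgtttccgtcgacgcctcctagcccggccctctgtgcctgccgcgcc
Klf4: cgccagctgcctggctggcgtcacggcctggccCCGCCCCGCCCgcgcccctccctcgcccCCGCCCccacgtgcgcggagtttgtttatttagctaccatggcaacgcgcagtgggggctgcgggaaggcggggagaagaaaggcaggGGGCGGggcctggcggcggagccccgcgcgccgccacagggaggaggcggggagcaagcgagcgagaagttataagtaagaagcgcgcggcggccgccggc
The Klf2 stretch held 2 GC boxes and the Klf4 stretch 4, of which the first 2 overlap. The promoter table (250 bases before to 50 after the start) matched 8 of the 10 members, all but Klf5 and Klf10, and a GC box on either strand was found in 7 of these 8, all but Klf9, against 35.7% of the 32851 windows in the table. The member windows were rich in G and C, at 58.3% to 77.7% of bases, against a median of 52.7% over all windows. A CACCC box (CACCC, either strand) was found in the windows of Klf2, Klf3, Klf7, Klf9 and Klf13, and in 57.5% of all windows. The MEF2 element, the site of the factors through which ERK5 signalling reaches Klf2 in endothelium, matched 1 of the 8 windows, that of Klf2 (ctaaatttag), and 3.19% of all windows. In Klf2 it lies 118 to 109 bases before the RefSeq start at 72319062, on which the window is built, and 89 to 80 bases before the GENCODE start at 72319033 given above. The AP-1 site (TGANTCA) matched the Klf9 window alone among the 8 and 7.81% of all windows. The cAMP response element (TGACGTCA), the TATA box (TATAAA) and the CArG box of serum response factor matched none of the 8, against 1.79%, 13.6% and 1.63% of all windows. The CCAAT box (CCAAT) matched 4 of the 8 and 37.4% of all windows. In the 2 stretches shown no 2 different motifs of this list overlapped, and a match is a run of letters, not a measured site.

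Klf5, known from proliferating epithelium (ENSMUSG00000005148, chromosome 14, 99298691 to 99315036, plus strand), had 20.8, 22.5 and 26.4 CPM with doxycycline, against 28.2, 38.4 and 29.5 CPM without, and a log2 fold change of -0.46 (SE 0.16). Every treated library was below every untreated one, though line 5 kept 89.5% (80.6 to 99.3) of its untreated level. Klf6, a widely expressed early response gene (ENSMUSG00000000078, chromosome 13, 5861482 to 5870394, plus strand), had 357, 213 and 338 CPM with doxycycline, against 446, 367 and 346 CPM without (log2 fold change -0.35, SE 0.20). Its groups overlapped, since the treated library of line 3 was above the untreated library of line 5, and the lines kept 80.2%, 58.0% and 97.6% of their untreated level. Klf7, best known from neurons (ENSMUSG00000025959, chromosome 1, 64029447 to 64122282, minus strand), had 7.97, 10.9 and 11.6 CPM with doxycycline, against 10.1, 9.72 and 7.79 CPM without (log2 fold change 0.15, SE 0.20). It was the 1 member with a fold change above 0, which became -0.074 without line 5, its groups overlapped, and 39.4% of its exonic bases are shared with Gm13748 and Gm26649 on the opposite strand. Whether counting used strand is not given in the sources used here. It is thus not known how reads in these shared bases were counted or whether any were left out.

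Klf3 represses transcription through CtBP. Klf3 (ENSMUSG00000029178, chromosome 5, 64803388 to 64832901, plus strand) had 67.6, 67.5 and 59.4 CPM with doxycycline, against 88.3, 89.7 and 78.1 CPM without, and a log2 fold change of -0.40 (SE 0.12). The difference was small but near equal in every line, with 76.5%, 75.3% and 76.1% of the untreated level kept. Of its exonic bases 3.59% are shared with Gm20033 on the opposite strand.

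The members that recruit SIN3A were Klf9, Klf10, Klf11 and Klf13. Klf9 is induced by glucocorticoids and thyroid hormone. It (ENSMUSG00000033863, chromosome 19, 23141226 to 23168134, plus strand) had 16.6, 12.3 and 13.6 CPM with doxycycline, against 20.6, 25.2 and 20.6 CPM without, with no overlap (log2 fold change -0.64, SE 0.17). Klf10, an early gene of TGF-beta signalling (ENSMUSG00000037465, chromosome 15, 38291463 to 38300706, minus strand), had 42.8, 37.4 and 53.1 CPM with doxycycline, against 79.7, 73.7 and 63.3 CPM without (log2 fold change -0.70, SE 0.16). Its groups did not overlap, and lines 3 and 4 kept 53.6% and 50.7% of the untreated level where line 5 kept 83.9%.

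Klf11, its close relative and also a TGF-beta early gene (ENSMUSG00000020653, chromosome 12, 24651274 to 24662789, plus strand), had 8.56, 4.06 and 5.74 CPM with doxycycline, against 7.51, 7.37 and 6.57 CPM without. Its treated library was the higher one in line 3 and the lower one in line 4, at 114% (92.8 to 140) and 55.2% (43.6 to 69.6) of the untreated level, and the log2 fold change was -0.23 (SE 0.26), or 0.018 without line 4. Klf13, known from T lymphocytes as an activator of the chemokine gene Ccl5 (ENSMUSG00000052040, chromosome 7, 63886351 to 63938915, minus strand), had 19.4, 16.2 and 16.0 CPM with doxycycline, against 19.8, 24.7 and 20.4 CPM without (log2 fold change -0.34, SE 0.15). The groups did not overlap, but by little, and line 3 kept 97.7% of its untreated level.

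Set side by side, 9 of the 10 members had a fold change below 0, against 49.6% of all genes tested, and the median log2 fold change was -0.43, against 0.0031 over all genes. Without Klf2 and Klf4 the median of the other 8 was -0.37, with values from -0.70 for Klf10 to 0.15 for Klf7. Of the 4 tested Krüppel-like factor genes outside the set, 2 were below 0 and 2 above, with a median of 0.11. In 7 members (Klf2, Klf3, Klf4, Klf5, Klf9, Klf10 and Klf13) every treated library was below every untreated one, as in 11.2% of all genes. An adjusted p under 0.05 in the fit over all genes was reached by 3 members (Klf2, Klf4 and Klf10), against 1.32% of genes lower and 0.963% higher, and by 2 (Klf2 and Klf4) with the line as a block. Without the treated library of line 4, any 1 of the untreated libraries, or line 4, Klf2 alone was left. The members were chosen with this contrast known, so these counts describe the choice and are read no further. The summed level of the 10 members was 586, 412 and 549 CPM with doxycycline in lines 3, 4 and 5, against 769, 709 and 636 CPM without.

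**Figure D2:**
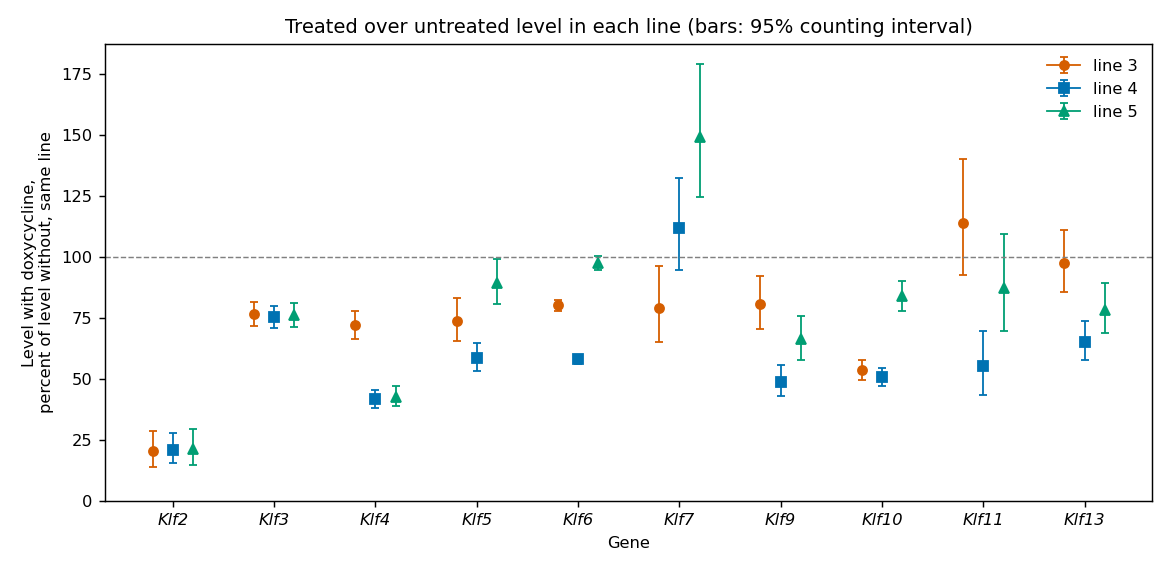
Level of each member with doxycycline as a percentage of the level without it in the same line, with 95% exact counting intervals, and a dashed line at 100%. Klf2 (20.3% to 21.1%) and Klf3 (75.3% to 76.5%) were near equal in the 3 lines, while Klf7 ran from 79.3% to 149%.

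Line 4 had the lowest of the 3 percentages for 8 members, all but Klf2 and Klf7, against 33.1% of all genes, a count chosen after its values were seen. Line 3 had the lowest for these 2 (37.9% of all genes) and line 5 for 0 (29.1% of all genes). For Klf2, Klf3, Klf4 and Klf10 the lowest and next lowest percentages lay within each other's counting intervals, so their ranks are near ties. In 6 members the untreated library of line 4 was also the highest of the untreated libraries, against 35.2% of all genes. The treated library of line 4 was likewise the lowest in the sum of the 22 immediate early genes, which was 1077, 679 and 925 CPM with doxycycline in lines 3, 4 and 5, against 1096, 1224 and 1088 CPM without. This was not particular to early genes. The 7 epithelial markers summed to 16538, 11845 and 15018 CPM with doxycycline in lines 3, 4 and 5. For the 10 macrophage markers the treated library of line 4 was the highest, at 362 CPM. The part of the immediate early genes in the Krüppel-like factor values was not tested. With 1 library per line and condition, a difference between lines in the response to doxycycline could not be tested.

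A difference between lines that holds in both conditions was tested in edgeR over both line coefficients at once, a contrast the choice of members did not use. None of the 10 members passed (edgeR adjusted p = 0.868 to 0.965, unadjusted p = 0.0998 to 0.795), and by the DESeq2 likelihood ratio test 0 members passed. Over all genes edgeR called 0 (0%), with 667 (4.59%) at an unadjusted p under 0.05, and DESeq2 called 16. The fitted log2 difference of line 4 minus line 3 was -0.54 for Klf11 and -0.50 for Klf6, and that of line 5 minus line 3 was -0.50 for Klf4. On simulated data the edgeR line test found 2.99% of genes made 1.5-fold different in line 4 and 29.9% of those made 2-fold different. A lack of calls is thus no sign of likeness between lines.

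Levels were compared between genes per kilobase of annotated exons. Klf6 was by far the most abundant, at 69.0 ± 17.8 CPM per kb (SD, n = 3) with doxycycline and 88.0 ± 12.0 CPM per kb (SD, n = 3) without. Klf10 and Klf4 followed, at 10.6 ± 1.91 and 10.3 ± 3.50 CPM per kb with doxycycline and 17.3 ± 1.99 and 19.7 ± 1.23 CPM per kb without (SD, n = 3 each), and overlapped each other in either condition. Klf3 and Klf5 came next, at 5.77 ± 0.418 and 4.47 ± 0.546 CPM per kb with doxycycline, where they did not overlap, and at 7.59 ± 0.564 and 6.16 ± 1.06 CPM per kb without, where they did (SD, n = 3 each). Below them were Klf9 (2.95 and 4.59 CPM per kb with and without doxycycline), Klf13 (2.28 and 2.88), Klf11 (1.41 and 1.65) and Klf7 (1.25 and 1.13). Klf2 stood at rank 10 with 0.955 ± 0.0881 CPM per kb with doxycycline, overlapping Klf7, and at rank 7 with 4.59 ± 0.409 CPM per kb without, overlapping Klf9 (SD, n = 3 each). Divided by the longest annotated transcript instead, Klf3 stood at 12.4 CPM per kb with doxycycline, above Klf4 at 10.3, so their order rests on the length used.

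**Figure D3:**
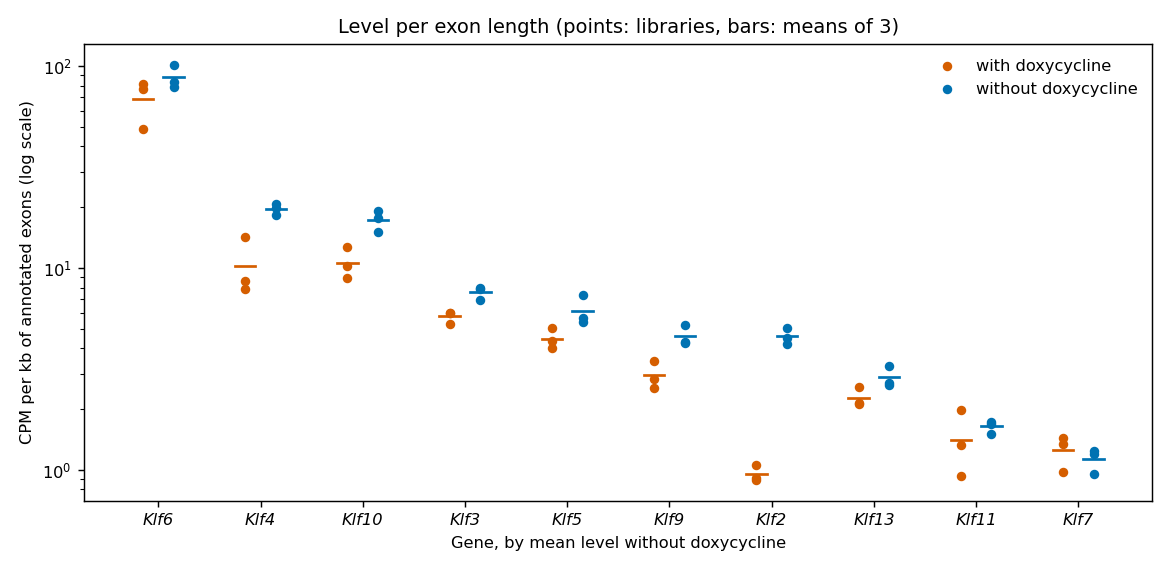
CPM per kilobase of annotated exons for the 10 members on a log axis, with doxycycline left (orange) and without right (blue) for each gene, points for libraries and bars for means of 3. Genes are ordered by the level without doxycycline, from Klf6 at 88.0 to Klf7 at 1.13 CPM per kb, and Klf2 has the widest gap between the groups.

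The other 7 Krüppel-like factor genes were low or absent except Klf16. Klf16, a SIN3A-recruiting repressor, had 19.4, 13.9 and 12.8 CPM with doxycycline, against 13.5, 20.2 and 16.4 CPM without (edgeR adjusted p = 0.833), with line 3 on one side and lines 4 and 5 on the other. Klf12 and Klf8, which recruit CtBP like Klf3, had 1.43 ± 0.260 and 0.921 ± 0.0678 CPM with doxycycline, against 1.12 ± 0.128 and 0.567 ± 0.254 CPM without (SD, n = 3 each; adjusted p = 0.63 and 0.418 in edgeR). Klf1, the erythroid activator of beta-globin, was at 0.425 ± 0.164 CPM with doxycycline and 0.517 ± 0.205 CPM without (SD, n = 3 each; edgeR adjusted p = 0.835). Klf15, a regulator of gluconeogenesis and amino acid use, had 3 counts over the treated and 7 over the untreated libraries, and Klf14 and Klf17 had 0 counts in every library. Of the 9 SP genes 5 passed the filter, none was called, and their median log2 fold change was -0.08. Of these, Sp2 was at 6.22 and 7.69 CPM with and without doxycycline and Sp8 at 0.431 and 0.660 CPM (edgeR adjusted p = 0.52 and 0.666).

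Genes upstream of Klf2 and Klf4 were described next, from lists written with earlier results of these data known. Over all genes tested 1.32% were called lower, 0.963% were called higher and 49.6% had a fold change below 0. These shares stand beside every list count from here on. Of the 11 tested genes of the MEK5, ERK5 and MEF2 cascade and the FOXO factors, 1 rose, none fell, and the median log2 fold change was -0.18. The 1 that rose was Mef2c, with 67 counts over the treated and 3 over the untreated libraries, a ratio of 22.1 (95% exact counting interval 7.26 to 110; edgeR adjusted p = 0.0139, and 0.0927, 0.116, 0.0539 and 0.19 without the untreated library of line 3, 4 or 5 or without line 4). Mef2c is also a gene of macrophages, of whose 10 markers 8 rose (0.963% of all genes). Their sum ran from 161 to 362 CPM with doxycycline and from 43.9 to 49.3 CPM without. The part of these markers in the rise of Mef2c was not tested. Foxo1, the activator of Klf2 in T lymphocytes and picked out here after its values were seen, was at 7.51 ± 0.855 CPM with doxycycline and 12.1 ± 0.721 CPM without (SD, n = 3 each; edgeR adjusted p = 0.0706).

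Among 5 tested genes known as targets of Klf2, 2 fell and all 5 were below 0, with a median log2 fold change of -1.10. Of all genes tested 1.32% fell and 49.6% were below 0. The list was written with earlier results known, so its counts are read no further. The chemokine receptor Ccr7 had 0.806 ± 0.0650 CPM with doxycycline and 4.27 ± 1.07 CPM without (SD, n = 3 each). Its log2 fold change was -2.40 (SE 0.30), with an edgeR adjusted p of 0.00278 that became 0.0775 without line 4. The integrin chain Itgb7 had 6.61 ± 2.00 CPM with doxycycline and 14.2 ± 2.29 CPM without (SD, n = 3 each; log2 fold change -1.10, SE 0.24, edgeR adjusted p = 0.0466). Blocking on the line gave Itgb7 an edgeR adjusted p of 0.0509. It passed in 2 of the 9 fits that left out a library or a line, those without the treated library of line 3 or 4, and its adjusted p was 0.28 without line 5. Both are genes of lymphocytes. All 10 T lymphocyte markers passed the filter, 6 fell (1.32% of all genes), none rose and 4 did not pass. Their summed level was 5.67 to 9.89 CPM with doxycycline, against 17.8 to 24.1 CPM without. Cd3d, a T cell receptor subunit gene, had 0 counts over the treated and 102 over the untreated libraries, and Cd3e had 2 and 105. Il7r, the interleukin receptor chain of T lymphocytes, went the other way without passing, at 2.15, 2.97 and 0.842 CPM with doxycycline in lines 3, 4 and 5, against 0.655, 0.980 and 0.192 CPM without (edgeR adjusted p = 0.169). The part of T lymphocyte RNA in the Klf2, Ccr7 and Itgb7 values was not tested. The libraries are labelled as KP cell lines, and RNA made by the KP cells themselves cannot be told apart from RNA of lymphocytes here. Fewer cells of a type likewise cannot be told apart from less RNA per cell in bulk samples. Endothelium, another source of Klf2, had Erg at 0 counts in every library and Cdh5 at 7 counts over the treated and 11 over the untreated libraries, and none of its 3 tested markers of 10 was called. The 10 endothelial markers summed to 15.4 to 29.3 CPM with doxycycline and 22.8 to 28.4 CPM without, most of it Flt1. The 6 B lymphocyte markers summed to less than 1 CPM in every library, with 1 of them tested and not called.

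Among 5 tested targets of Klf4, 2 fell (1.32% of all genes) and all 5 were below 0 (49.6% of all genes), with a median log2 fold change of -0.97. Krt4, also listed but removed by the filter, went the other way, with 30 counts over the treated and 10 over the untreated libraries. This list, too, was written with earlier results known, and its counts are read no further. Intestinal alkaline phosphatase (Alpi) had 0.815 ± 0.283 CPM with doxycycline and 3.96 ± 0.414 CPM without (SD, n = 3 each). Its log2 fold change was -2.29 (SE 0.32), with an edgeR adjusted p of 0.00488 that became 0.0775 without line 4. Involucrin (Ivl), of the cornified envelope, had 4.90 ± 2.52 CPM with doxycycline and 15.4 ± 4.13 CPM without (SD, n = 3 each; edgeR adjusted p = 0.037). Its edgeR adjusted p was 0.204, 0.121 and 0.0737 without the untreated library of line 3, 4 or 5, and 0.0993 and 0.161 without line 3 or 4. The other tested targets, Cdkn1a, Cdh1 and Krt19, did not pass. Klf4 is also a gene of macrophages, of whose 10 markers 8 rose (0.963% of all genes) while Klf4 was lower with doxycycline. The part of the macrophage markers in the Klf4 values was not tested. The 7 fibroblast markers, 3 of them tested, summed to 1.82 to 6.64 CPM with doxycycline and 6.41 to 7.62 CPM without, and the 1 that fell was Thy1, also a surface protein of mouse T lymphocytes.

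**Figure D4:**
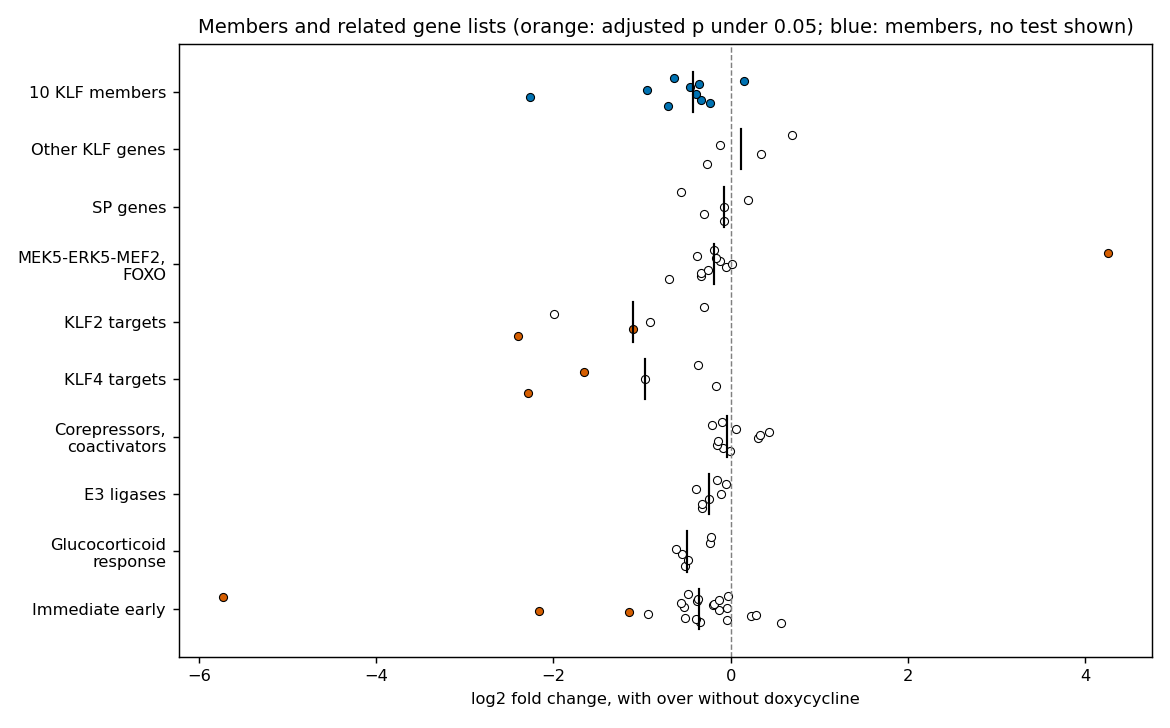
Fitted log2 fold change, with over without doxycycline, of each tested gene in the 10 members and 9 related lists, with vertical bars for list medians, orange for an edgeR adjusted p under 0.05 and blue for members, for which no test is shown. Most genes lie near 0, Klf2 at -2.26 lies apart from the other members, and the outermost points, Nr4a3 and Mef2c, are genes with 1 and 3 counts in a group, so their fitted values depend on the prior count.

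Of 6 tested genes of the glucocorticoid response, which includes Klf9, none was called and all were below 0, with a median of -0.50. The receptor Nr3c1 was at 21.3 ± 1.26 CPM with doxycycline and 31.2 ± 3.14 CPM without, and its co-chaperone Fkbp5 at 20.6 ± 0.631 and 28.7 ± 3.13 CPM (SD, n = 3 each; adjusted p = 0.072 and 0.114 in edgeR).

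Immediate early genes are induced by the same stimuli as several Krüppel-like factors. Of 22 tested, 3 fell (1.32% of all genes) and none rose (0.963% of all genes), with a median log2 fold change of -0.36. Of these genes 19 were below 0 (49.6% of all genes) and 3 above. Fosb had 1.93 ± 0.415 CPM with doxycycline and 8.59 ± 1.25 CPM without, a log2 fold change of -2.16 near that of Klf2 (SD, n = 3 each; SE 0.25, edgeR adjusted p = 0.00167). The nuclear receptor Nr4a3 had 1 count over the treated and 72 over the untreated libraries, lower by a ratio of 72.7 (95% exact counting interval 12.6 to 2909; edgeR adjusted p = 0.00429, and 0.0775 without line 4). Fos had 4.39 ± 1.02 CPM with doxycycline and 9.73 ± 2.36 CPM without (SD, n = 3 each; edgeR adjusted p = 0.0452, 0.0721 with the line as a block and up to 0.435 when a library or line was left out). The call of Fos was kept in 3 of those 9 fits, those without the treated library of line 3, the untreated library of line 5 or line 3. Egr1 and Ier2, early genes of the same class named after their values were seen, were at 14.5 and 67.9 CPM with doxycycline and 12.3 and 69.6 CPM without, and did not pass. Egr1, among the 3 above 0, was at 12.1, 9.48 and 21.9 CPM with doxycycline in lines 3, 4 and 5.

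**Figure D5:**
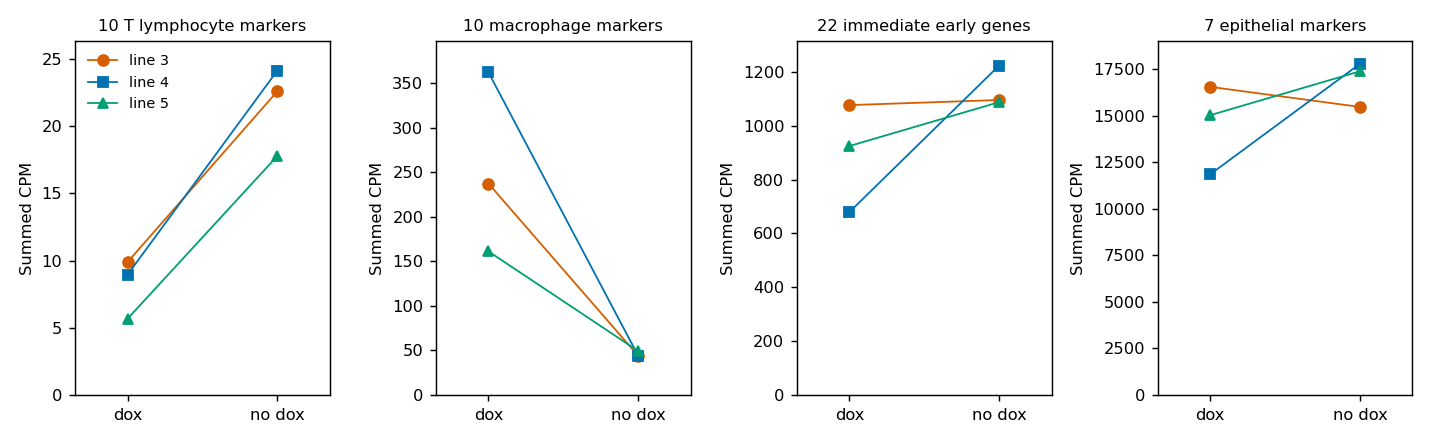
Summed CPM of the T lymphocyte, macrophage, immediate early and epithelial lists in the 6 libraries, linear axes from 0, with doxycycline (dox) left and without (no dox) right, and a line joining the 2 libraries of 1 hairpin line. T lymphocyte markers were at 5.67 to 9.89 CPM with doxycycline and 17.8 to 24.1 CPM without, and macrophage markers at 161 to 362 and 43.9 to 49.3 CPM.

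The partners and regulators of the proteins were measured at the RNA level only. Of 10 tested corepressors and coactivators none was called (median log2 fold change -0.04), and the histone deacetylases Hdac2 and Hdac1 stood at 0.34 and 0.31 on the log2 scale (adjusted p = 0.166 and 0.201 in edgeR). Of 7 tested ubiquitin ligases that act on KLF proteins none was called (median -0.25), and Smurf1 and Btrc stood at -0.39 and -0.33 (adjusted p = 0.292 and 0.336 in edgeR). In the 2 fits without the treated library of line 3 or without line 3, Smurf1 passed (adjusted p = 0.0364 and 0.041).

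The genes whose pattern was most like that of Klf2 or Klf4 were sought among 9812 genes with a mean of at least 5 CPM, by Pearson correlation of log2(CPM + 0.5) over the 6 libraries. For Klf2 these were Plpp3, Uso1, Fam84a, Tbc1d10c and Gtf2ird1 (r = 0.987 to 0.995). Plpp3, a lipid phosphate phosphatase, had 15.2, 15.1 and 14.5 CPM with doxycycline, against 24.5, 24.0 and 22.7 CPM without. For Klf4 they were Lynx1, Atp8b2, Agpat4, Cadm4 and Cmtm3 (r = 0.993 to 0.998), which share the high treated library of line 3. Lynx1, a modulator of nicotinic receptors, had 6.09, 4.00 and 3.45 CPM with doxycycline, against 8.36, 8.97 and 7.60 CPM without. Such correlations mostly repeat the gap between the groups, as the points share libraries and treatment, and were taken from the top of 9812 genes, so they are given with no test.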

How the data were processed

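The authors deposited whole-number read counts per Ensembl gene, 1 file per library, with no normalization. Tools named, per the submitters' processing notes, were STAR, HTSeq, CASAVA, bedtools, Picard, R 3.3.0 and DESeq2, and the build was mm10. Annotation release and strand setting: not given in the sources used here. The 5 rows that name no gene (43.8% to 47.7% of reads) were left out. Symbols (48058 of 48526 identifiers), exon lengths and overlaps came from GENCODE M21 of the same build.

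The main test was edgeR 4.0.16 in R 4.3.3 (low counts removed by filterByExpr, TMM scaling, quasi-likelihood F test, Benjamini-Hochberg over 14531 genes). CPM used TMM-scaled library sizes, and SE is the absolute log2 fold change over the root of F. The common biological variation (BCV) was 18%. Alternatives were RLE scaling, no filter, DESeq2 1.42.0, the line as a block, each library or line left out, and, added after the data were seen, leukocyte markers left out. Methods were tested on simulated data. There the edgeR doxycycline test found 14.9% of genes made 1.5-fold different and 59.7% of those made 2-fold different. A gene that was not called is thus not shown to be unchanged. Since libraries were lines, p-values measure the spread between lines. Line numbers pair libraries because each is 1 stable line. Deviations from group means correlated with r = 0.0048, 0.0674 and 0.0276 within lines 3, 4 and 5. Between different lines r ran from -0.102 to 0.067, so these correlations do not show the pairing, which rests on the labels. Replicates were not duplicates (chi-square per degree of freedom 7.86 to 108). Named genes were the members, the tested other KLF genes, of each list up to 4 passing genes or otherwise the 2 of smallest p, and the 5 most like Klf2 or Klf4. Members and lists were chosen with earlier results of these data known. Motifs were searched on both strands. The result of 1 further gene list is not reported here.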

Additional observations from a re-analysis of the deposited data

Results flagged for a closer look

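Klf7 stood at 149% of its untreated level in line 5 (95% exact counting interval 125 to 179) and at 79.3% in line 3 (65.1 to 96.4), opposite directions beyond counting error. Klf16 stood at 144% in line 3, and at 68.8% in line 4 and 78.4% in line 5. With 1 library per line and condition these differences between lines were not tested.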

How the results depend on the processing

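The number of genes called for doxycycline against none was 332, 1052 with no filter on low counts, 720 with DESeq2 and 243 with the replicate block, and ran from 62 (without line 4) to 1551 (without the treated library of line 3) when a library or line was left out. Of the members 3 passed, 2 with the replicate block and between 1 and 4 when a library or line was left out. Klf2 passed in all 14 alternatives, with log2 fold changes of -2.34 to -2.19, Klf4 in 7, Klf10 in 5 and Klf9 in 4. Klf3, Klf5, Klf6, Klf7, Klf11 and Klf13 passed in none. The members were chosen with this contrast known, and the alternatives reuse the same libraries. These pass counts thus describe the choice and are no independent test. The log2 fold change of Npm1 lay between -3.63 and -2.55 when a library or line was left out. With the line as a block, Klf10, Itgb7 and Fos lost their calls, and no other member or named list gene changed its call. For the genes most like Klf2 or Klf4 the calls were not compared. Nr3c1 passed with no filter and with DESeq2. The line test called 0 genes, 240 with no filter on low counts, 16 with DESeq2 and from 0 to 330 (without the untreated library of line 3) when a library was left out, and no member in any of these. Of the members, Klf7 turned from 0.15 to -0.074 without line 5 and Klf11 from -0.23 to 0.018 without line 4, on the log2 scale, and the other 8 kept their direction in all 14 alternatives. Klf1 and Klf16 changed sign when a library or line was left out, with log2 fold changes of -0.61 to 0.083 and -0.44 to 0.11. Klf1 could not be tested without line 4. The cause of these shifts was not tested. Depth limits the reading of Klf1, Klf8, Klf12 and Klf15, with counts from 3 to 112 per group.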
